A study of Sus scrofa with 12 samples.

Results

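Heat shock proteins and chaperones were examined in m6A peak lists of boar sperm. The genes were all RefSeq mRNA genes of the pig assembly Sscrofa11.1 whose symbol belongs to the HSP90, HSPA, HSPH, HSPB, HSPD or HSPE heat shock proteins, the DNAJ proteins of classes A, B and C, the BAG cochaperones, the HSF transcription factors or the CCT subunits. This gave 88 of 20678 mRNA genes. MeRIP-seq, in which an antibody to N6-methyladenosine (m6A) pulls down RNA fragments that are then sequenced, was run on boar sperm either fresh (the Fs group) or after freezing and thawing (the Fts group), and 6 immunoprecipitated (IP) samples, 3 per group, had a peak list. In the Fs group, a portion of the ejaculate of Duroc boars was put in liquid nitrogen and RNA was extracted from it. In the Fts group, another portion was cooled to 17 °C, centrifuged, taken up in a lactose-egg yolk extender, cooled at 4 °C for 4 h and diluted with extender containing 6% glycerol. Freezing was done in straws of 0.2 mL, first in nitrogen vapour (about -130 °C, 15 min) and then in the liquid. In both groups seminal plasma was removed and the pellet was treated with Triton X-100 against somatic cells. The boars were mature, and their ages in numbers are not given.

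Chaperones bind unfolded or partly folded proteins and help them reach or regain their shape. HSP70 proteins (HSPA genes) work in cycles of ATP hydrolysis that J-proteins (DNAJ genes) start and that nucleotide exchange factors such as the HSPH and BAG proteins end, while HSP90 proteins act on clients that are nearly folded and the CCT ring folds actin and tubulin. Mature sperm hardly transcribe or translate, carry RNA left from spermatogenesis, and hold several chaperones that the testis makes in germ cells, among them HSPA2.

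A peak is a stretch where the IP sample of a library had more reads than its own input, and its score is described as 10 times the −log10 of the p-value of the peak caller. The lowest score in the lists was 3.02, which on that scale is a p of 0.499 for that peak. The threshold of the caller is not given in the sources used here, and a filter or scale other than the described one cannot be told apart. The lists do not give the number of reads behind a peak, and the read numbers of the libraries were not used here. They do not give amounts of transcripts either, and in bulk samples fewer cells of a type and less RNA per cell cannot be told apart. The study's methods divided each boar's ejaculate between the groups and compared the groups as pairs. The samples of a group are numbered 1 to 3, and the labels do not say whether a number stands for a boar. Any p-value below therefore measures the spread between these samples, which may be partly technical.

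The lists held 8015, 10378 and 10335 peaks in Fs samples 1 to 3, and 9682, 11510 and 11982 peaks in Fts samples 1 to 3. On mRNA genes the numbers of peaks were 6818, 8819 and 8724 in Fs, and 8482, 10369 and 10681 in Fts, so that Fts had 1.21 times the Fs mean. The ranges of the groups overlapped in both counts, but between samples of the same number Fts was always higher. On mRNA genes the mean difference by number was 1724 peaks (SD 210).

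On the chaperone genes there were 20, 28 and 34 peaks in the Fs samples, and 49, 63 and 60 peaks in the Fts samples. Every Fts sample was above every Fs sample. The means were 27.3 ± 7.02 peaks in Fs and 57.3 ± 7.37 in Fts (SD, n = 3), a mean difference of 30 peaks between samples of the same number (SD 4.58) and a ratio of means of 2.10. Per 1000 peaks on mRNA genes, the chaperone genes took 2.93, 3.17 and 3.90 peaks in Fs and 5.78, 6.08 and 5.62 in Fts, and again the groups did not overlap. Per 100 kb of exon, the chaperone genes carried 9.37 ± 2.41 peaks in Fs and 19.7 ± 2.53 in Fts (SD, n = 3), where all mRNA genes had a ratio of means of 1.21. Most of the difference lay in 8 genes, chosen for the largest differences (HSPA4L, HSPA4, DNAJB6, DNAJB2, HSP90AB1, HSP90B1, DNAJC11 and DNAJC14), which gave 22.3 of the 30 peaks, while the other 80 genes gave 7.67.

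**Figure D1:**
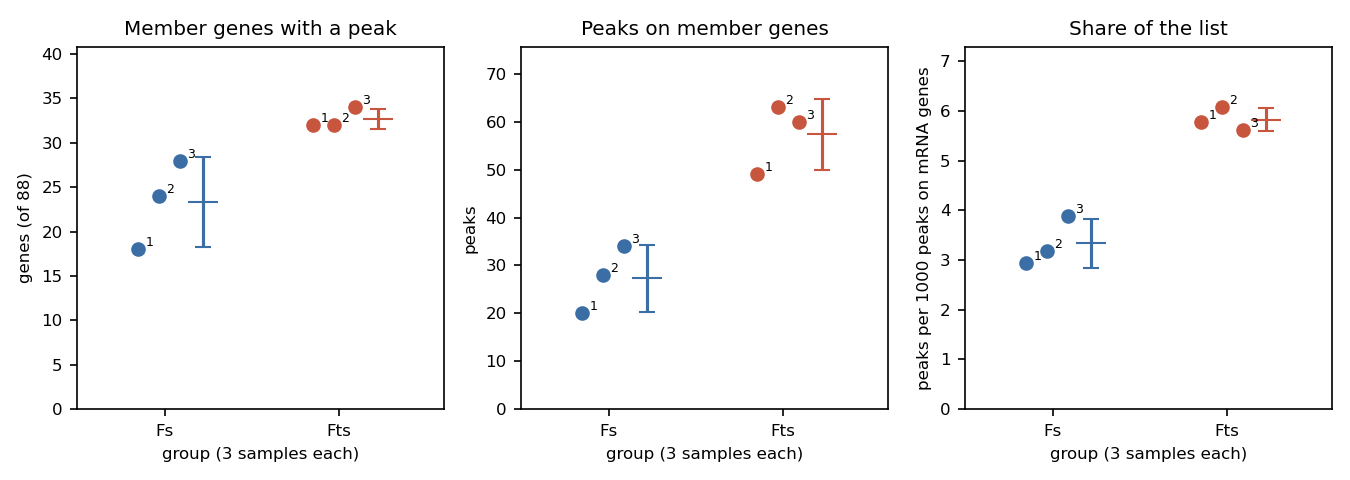
Each point is a sample (digit: sample number), the horizontal line is the group mean and the bar its SD over 3 samples, for the number of chaperone genes with a peak, the number of peaks on chaperone genes, and the peaks on chaperone genes per 1000 peaks on mRNA genes. The Fts samples, with 49 to 63 peaks, lay above the Fs samples, with 20 to 34.

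A peak was found on 18, 24 and 28 chaperone genes in Fs, and on 32, 32 and 34 in Fts. All Fts samples were above all Fs samples, with means of 23.3 ± 5.03 and 32.7 ± 1.15 genes (SD, n = 3). Over all mRNA genes the share with a peak was about the same in both groups, 28.9% in Fs and 29.4% in Fts. Chaperone genes that had a peak carried on average 1.16 peaks in Fs samples and 1.75 in Fts samples, beside 1.36 and 1.62 over all mRNA genes.

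Of the 88 genes, 59 had a peak in at least 1 sample and 29 had none, 33% of the genes, beside 43.4% of all mRNA genes. A peak in all 3 Fts and no Fs sample was found for 4 genes (4.55%, beside 3.16% of all mRNA genes), namely HSPA8, HSP90B1, DNAJB2 and DNAJC14. The opposite pattern was found for 1 gene, HSPA14 (1.14%, beside 2.36%). A peak in all 6 samples was found for 3 genes, DNAJA1, DNAJB11 and DNAJC27 (3.41%, beside 7.65%). With a score of at least 20, and with at least 50, 0 genes had one (beside 2.24% and 0.982%). Among genes with a peak in any sample, the shares of the 59 chaperone genes in these 3 patterns were 6.78%, 1.69% and 5.08%, beside 5.59%, 4.16% and 13.5% of the 11705 mRNA genes.

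In each of the 3 comparisons of samples with the same number, 9 genes had more peaks in Fts (10.2%, beside 6.1% of all mRNA genes), and 1 gene, HSPA14, had fewer (1.14%, beside 3.88%). The 9 were HSP90AB1, HSP90B1, HSPA4, HSPA4L, HSPA8, HSPD1, DNAJB2, DNAJB6 and DNAJC14. Without the numbers, 8 genes, all of these but HSPD1, had more peaks in every Fts sample than in any Fs sample (9.09%, beside 5.08%), and HSPA14 alone had fewer (1.14%, beside 3.03%). With a score of at least 20, the single gene with fewer was HSPB2 and not HSPA14 (1.14%, beside 1.38%). The genes with more by sample number were then again 9 (10.2%, beside 3.72%), with DNAJA1 and DNAJC11 in place of HSP90B1 and HSPD1. With at least 50 they were 6 (6.82%, beside 2.35%), namely DNAJB2, DNAJB6, DNAJC11, HSP90AB1, HSPA4 and HSPA4L, and 0 genes had fewer (beside 0.948%). The shares that follow are without a minimum score. Among genes with a peak in any sample, the shares with more and with fewer peaks by sample number were 15.3% and 1.69% of the chaperone genes, beside 10.8% and 6.86%, and those without overlap were 13.6% and 1.69%, beside 8.98% and 5.36%. A larger number of genes had peaks in more Fts than Fs samples, 30 (34.1%, beside 21.6%), than the other way round, 20 (22.7%, beside 21.9%). Of the genes with a peak these were 50.8% and 33.9%, beside 38.2% and 38.7%. The median difference in peaks was 0 for the chaperone genes and for all mRNA genes. With 3 samples per group, neither of the exact tests used can pass 0.05. The smallest p of the two-sided exact sign-flip test is 0.25 and that of the two-sided exact permutation test of 3 against 3 is 0.1. These smallest values were reached by each of the 8 genes and by HSPA14, because groups without overlap always give them. The p-values therefore add nothing to that pattern. HSPD1 had an exact sign-flip p of 0.25, which more peaks in each comparison by number always gives, and an exact permutation p of 0.3.

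**Figure D2:**
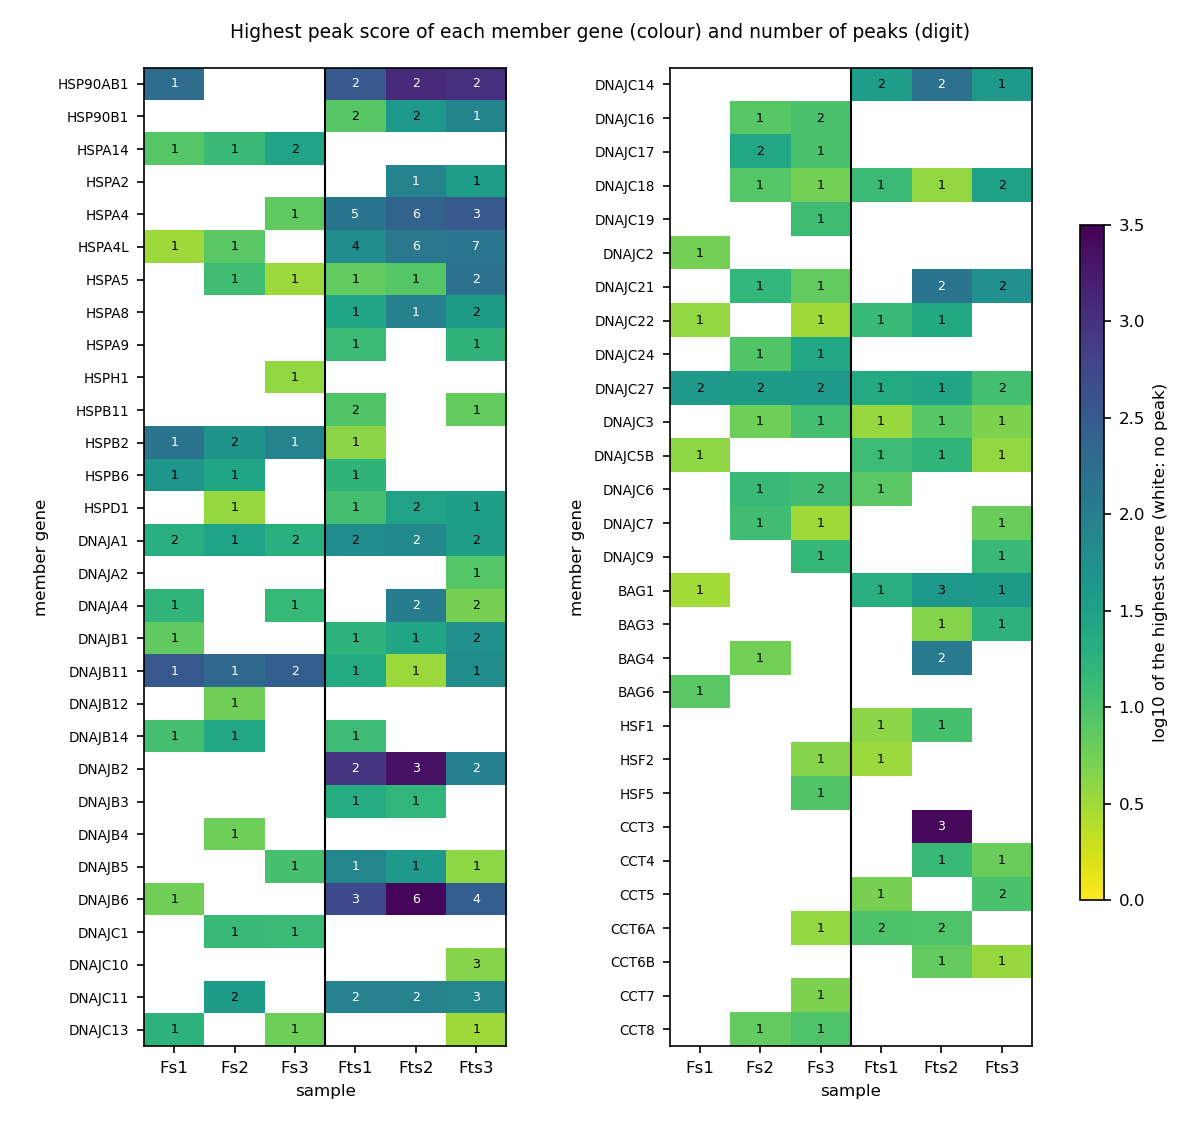
Chaperone genes with at least 1 peak (vertical axis) in each of the 6 samples (horizontal axis), with the colour giving the log10 of the highest peak score, the digit the number of peaks, and white no peak. HSP90AB1, HSPA4, HSPA4L, DNAJB2 and DNAJB6 had more peaks in all 3 Fts samples than in any Fs sample.

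Among the HSP90 genes, HSP90AB1, the constitutive cytosolic HSP90, had 1, 0 and 0 peaks in Fs and 2 in each Fts sample. On exon 7 (chr7:39246672-39246980, + strand, coding sequence), Fs sample 1 had a score of 182 and the other two Fs samples had no peak, while the Fts scores were 240, 1222 and 1064. On exon 11 (chr7:39248846-39249114, coding sequence) the scores were 334, 721 and 602 in Fts, with no peak in Fs. Both regions spanned the whole exon, and all 3 Fts samples had both. HSP90B1, the HSP90 of the endoplasmic reticulum, had no peak in Fs and 2, 2 and 1 in Fts. Its exon 16 carried a peak in every Fts sample, with scores of 8.14, 42.6 and 83.6, and its other Fts peaks had scores under 5. HSP90AA1, the inducible cytosolic HSP90, had no peak in any of the 6 samples; it lies on an unplaced scaffold of the assembly.

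The HSPA genes, 12 in number, together had 2, 3 and 4 peaks in Fs and 12, 15 and 16 in Fts. The groups did not overlap, and most of the Fts peaks were on the pair HSPA4 and HSPA4L, HSP110-type proteins that exchange the nucleotide of HSP70. HSPA4 had 0, 0 and 1 peaks in Fs and 5, 6 and 3 in Fts. On its exon 3 (chr2:135358787-135358927, + strand, coding sequence) the scores were 138, 245 and 335 in Fts, and no Fs sample had a peak there. The single Fs peak was 7 bp long, on exon 11, with a score of 7.31. HSPA4L, made at high level in the testis, had 1, 1 and 0 peaks in Fs and 4, 6 and 7 in Fts. With peaks that meet across an exon junction joined, a setting chosen for single genes and groups after seeing the data, the mean difference was 2 peaks for HSPA4 in place of 4.33, and 2.33 for HSPA4L in place of 5. For the HSPA genes together it was then 6.33 in place of 11.3, still without overlap. On exon 14 its scores were 5.61, 126 and 136 in Fts, and on exon 15 they were 16, 51.3 and 39.6. No Fs sample had a peak on either exon, and the Fs peaks lay on exon 20, where all 3 Fts samples also had a peak. The exons with peaks of HSPA4 and HSPA4L that match in number and length had 63.1% of bases identical on exon 3 and 74.6% on exon 15.

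**Figure D3:**
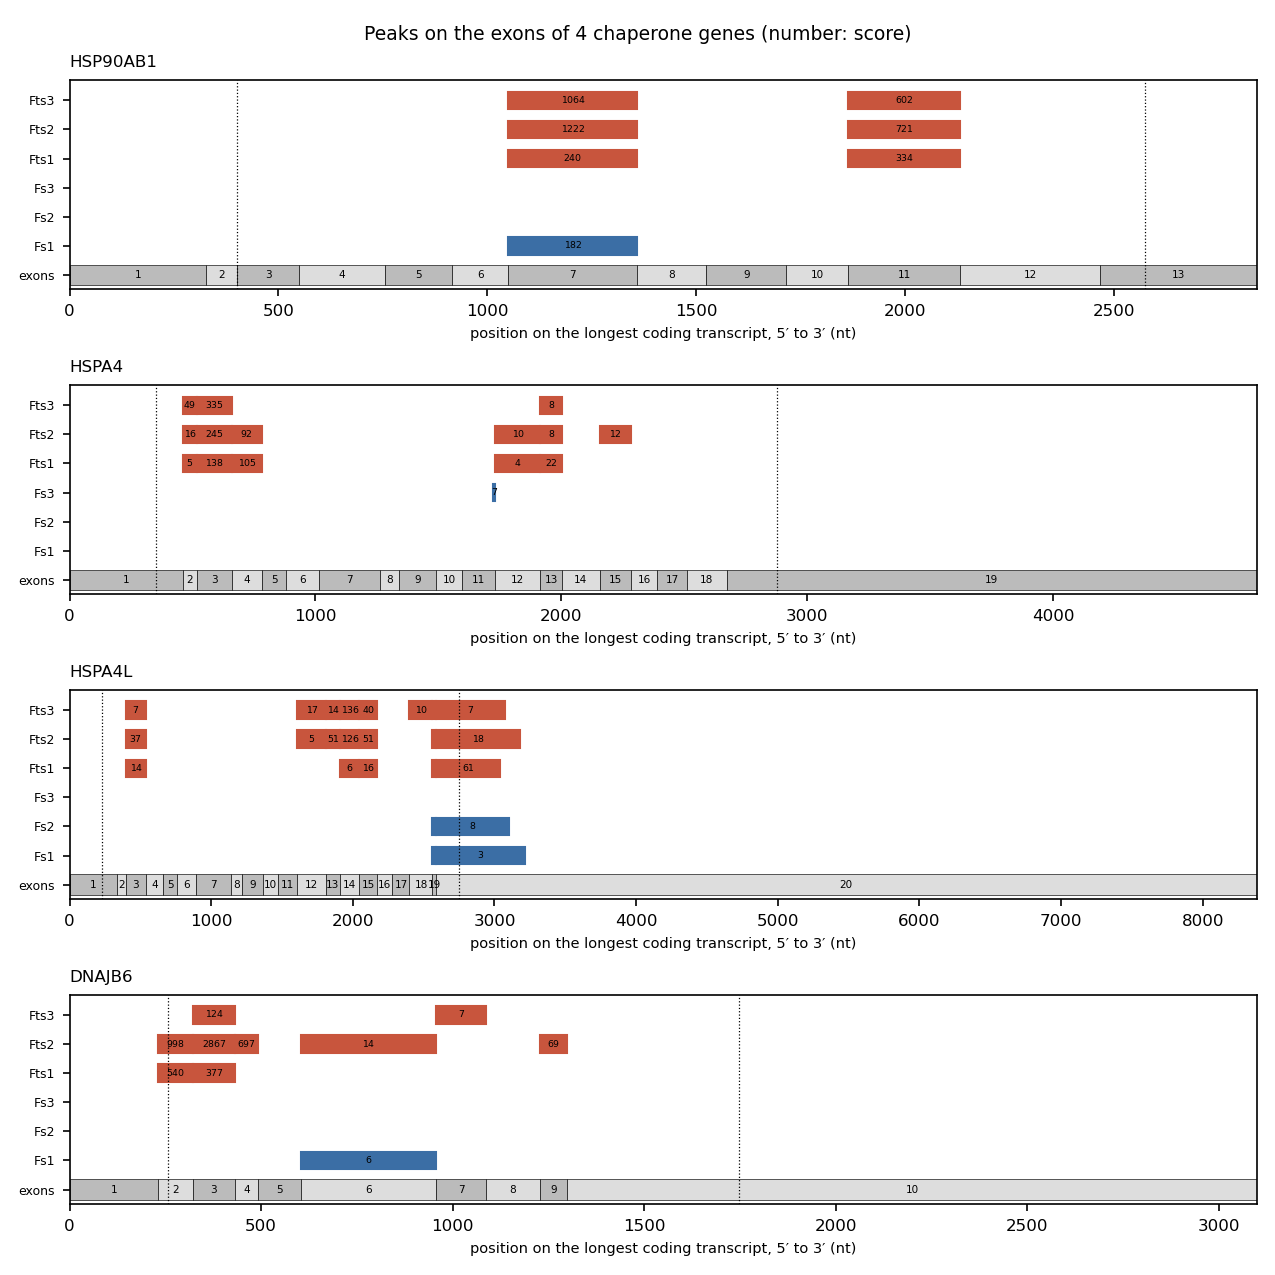
Peaks (bars, with the score) of each sample (vertical axis) on the longest coding transcript of 4 genes, with exons numbered along the bottom, position in nt from the 5′ end, and dotted lines at the start and stop codons. Fs samples are blue and Fts samples red, and peaks that lie outside this transcript are not drawn.

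HSPA8, the constitutive HSP70, had no peak in Fs and 1, 1 and 2 in Fts. The Fts peaks were not all on the same exon: Fts samples 1 and 2 had exon 5 (scores 26.7 and 95.8), and sample 3 had the stop codon region (36.9) and a peak of 3.05 outside the longest coding transcript. HSPA2, the HSP70 of spermatocytes and spermatids, had no peak in Fs or in Fts sample 1, and 1 each in Fts samples 2 and 3, with scores of 84.9 and 35.1. HSPA5, the HSP70 of the endoplasmic reticulum, had 0, 1 and 1 peaks in Fs and 1, 1 and 2 in Fts, so that the groups overlapped. Its highest score was 158, in Fts sample 3. HSPA9, the mitochondrial HSP70, had a peak in Fts samples 1 and 3 (13.1 and 16.9) and in no other sample, and HSPA1L, a testis HSP70, had none. HSPA14, a ribosome-associated HSP70, had 1, 1 and 2 peaks in Fs and none in Fts. These were short, at 11 bp by the start codon in Fs samples 1 and 3, and at 14 and 29 bp by the stop codon in Fs samples 2 and 3. The highest scores were 8.35, 13.8 and 28.4. HSPH1, the other HSP110, had a single peak with a score of 3.74, in Fs sample 3.

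Of the 8 small heat shock protein (HSPB) genes, most of whose proteins hold unfolded clients without ATP, 3 had a peak, with 2, 3 and 1 peaks in Fs and 4, 0 and 1 in Fts. With a score of at least 20, chosen for groups after seeing the data, the Fs numbers were the same and Fts had none. All of these Fs peaks lay on stretches shared with another gene. With at least 50 the numbers were 1, 0 and 1 in Fs and 0 in each Fts sample, and the groups overlapped again. HSPB2, of heart and skeletal muscle, held the single region with a peak in all 3 Fs and no Fts samples. On its exon 3 (chr9:39643440-39643988, + strand) the scores were 143, 48.5 and 86.7 in Fs. This stretch also lies on CRYAB, a small heat shock protein gene on the other strand. The sources used here do not say whether a peak's strand came from the library or from the annotated gene. HSPB2 and CRYAB can therefore not be told apart there with certainty, and the same holds for other genes that overlap on opposite strands. Elsewhere on HSPB2 lay a peak of 34.0 in Fs sample 2 and an overlapping one of 4.01 in Fts sample 1, on a stretch that also belongs to C9H11orf1 on the same strand. HSPB11, named after its values were seen, encodes the intraflagellar transport protein IFT25 and had 2, 0 and 1 of the Fts peaks and none in Fs, with scores from 4.73 to 8.86. HSPB6, named after its values were seen, overlaps LIN37 on the other strand, and its peaks were in Fs samples 1 and 2 and Fts sample 1.

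In mitochondria HSPD1 (HSP60) and HSPE1 (HSP10) form a folding chamber. HSPD1 had 0, 1 and 0 peaks in Fs and 1, 2 and 1 in Fts. Its exon 5 carried the peak in all 3 Fts samples, with scores of 10.8, 30.3 and 33.7, and the Fs peak, with a score of 3.59, was on another exon. HSPE1 had no peak in any sample.

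Class A J-proteins (DNAJA, 4 genes) had 3, 1 and 3 peaks in Fs and 2, 4 and 5 in Fts, and the groups overlapped. With a score of at least 20 they did not, at 1, 1 and 0 in Fs and 2, 3 and 2 in Fts, and with at least 50 they did again. Both marker lists described below were also without overlap at a score of at least 20. DNAJA1, a cytosolic partner of HSPA8 whose loss impairs spermatogenesis in mice, was among the genes with a peak in all 6 samples. On exon 3 (chr10:33443894-33444071, - strand) the scores were 20.4, 29.7 and 18.98 in Fs and 52.8, 70.9 and 35.4 in Fts. Every Fts score was above every Fs score there. Scores are not scaled between samples, and the mean of their medians on all mRNA genes was 11.3 in Fs and 14.2 in Fts. How many regions of all mRNA genes have scores without overlap was not counted, here or for DNAJB11 and DNAJC27 below. Its exon 5 has a copy elsewhere in the assembly at 96.1% identity, so that reads of the copy could not be told apart with certainty.

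Class B J-proteins (DNAJB, 13 genes) had 4, 4 and 3 peaks in Fs and 10, 13 and 10 in Fts, without overlap. With at least 50% of a peak on exons they had 4, 4 and 2 in Fs and 8, 9 and 7 in Fts, a mean difference of 4.67 peaks in place of 7.33. DNAJB6, which keeps aggregation-prone proteins soluble, had 1, 0 and 0 peaks in Fs and 3, 6 and 4 in Fts. Its exon 3 (chr18:1478168-1478277, - strand) had scores of 377, 2867 and 124 in Fts and no peak in Fs. A region at chr18:1499735-1499876, outside the longest coding transcript, had scores of 70.3, 160 and 285 in Fts and none in Fs. DNAJB2, a cochaperone that delivers clients to the proteasome, had no peak in Fs and 2, 3 and 2 in Fts. Its region at chr15:121320147-121320475 had scores of 906, 2189 and 92.4, and 101 of its 329 bp lay on an exon. In that setting, chosen for single genes and groups after seeing the data, the mean difference of DNAJB2 was 1.33 peaks in place of 2.33. DNAJB11, a J-protein of the endoplasmic reticulum, had a peak in all 6 samples on its exon 2 (chr13:124390773-124391233, + strand), which holds the start codon. The midpoints were in the 5′ untranslated region, except in Fts sample 2, where it was within 100 nt of the start codon. The scores there were 343, 202 and 288 in Fs and 22.7, 3.35 and 59.7 in Fts, so that every Fs score was above every Fts score. DNAJB13, an axonemal protein of sperm, had no peak in any sample.

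Class C J-proteins (DNAJC, 27 genes), the most varied class, had 6, 14 and 17 peaks in Fs and 10, 11 and 18 in Fts, and here the groups overlapped. The mean difference was 0.667 peaks, and -0.667 with peaks joined across junctions. With a score of at least 20 it was 3.33, with 2, 4 and 3 peaks in Fs and 5, 8 and 6 in Fts, without overlap. Both marker lists described below were also without overlap at that score. On all mRNA genes, peaks with a score of at least 50 numbered 1239, 1411 and 1334 in Fs and 1759, 2858 and 2401 in Fts. DNAJC14 had no peak in Fs and 2, 2 and 1 in Fts, with highest scores of 35.2, 155 and 42.2. No exon of it had a peak in all 3 Fts samples. DNAJC11, of the mitochondrial outer membrane, had 0, 2 and 0 peaks in Fs and 2, 2 and 3 in Fts. On exon 4 (chr6:67494481-67494582, - strand) its scores were 88.8, 88.6 and 79.0 in Fts, and on exon 3 (chr6:67500996-67501069) they were 20.5, 32.7 and 38.4. Neither exon had a peak in Fs, where the peaks were on exons 6 and 7. With peaks joined across junctions, the mean difference of DNAJC11 was 0.333 peaks in place of 1.67. DNAJC27, a J-protein with a RAB-like GTPase domain, had 2 peaks in each Fs sample and 1, 1 and 2 in Fts. Its 3′ untranslated region (chr3:113853680-113855044, + strand) had scores of 41.1, 37.8 and 21.8 in Fs and 23.1, 26.5 and 11.0 in Fts, and the groups overlapped. On its exon 1, around the start codon (chr3:113816718-113817007), the scores were 20.8, 16.6 and 41.1 in Fs, and only Fts sample 3 of the Fts samples had a peak, of 4.88. Every Fs sample was above every Fts sample there. The clathrin-uncoating DNAJC6 had 0, 1 and 2 peaks in Fs and 1, 0 and 0 in Fts. The endosomal DNAJC13 had 1, 0 and 1 in Fs and 0, 0 and 1 in Fts, with scores up to 17.5. In neither gene were the groups apart.

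The 6 BAG genes, whose proteins release HSP70 from its client, had 2, 1 and 0 peaks in Fs and 1, 6 and 2 in Fts, with overlap. BAG6, which is needed for spermatogenesis in mice, had a single 30 bp peak, with a score of 7.81, in Fs sample 1. The 3 HSF genes encode the transcription factors of the heat shock response. HSF1 had a peak in Fts samples 1 and 2 (4.08 and 10.4), on a stretch that also belongs to DGAT1 on the other strand. HSF2, which acts in germ cells, had a peak in Fs sample 3 (4.29) and in Fts sample 1 (3.33), and HSF5, a testis factor, had a peak in Fs sample 3 (8.92). All HSF scores were under 11.

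The 9 CCT genes had 0, 1 and 3 peaks in Fs and 3, 7 and 4 in Fts, and a value of 3 was found in both groups. CCT6B, the testis form of a ring subunit, had 1 peak each in Fts samples 2 and 3 (6.86 and 3.52), and CCT2 had none. CCT3, named after its values were seen, had 3 peaks, all in Fts sample 2, with scores of 2687, 418 and 208. That pattern rests on this sample alone. CCT6A, also named after its values were seen, had peaks on exons 4, 7 and 11, and each of them has a copy elsewhere in the assembly at 94.9%, 93.3% and 94.8% identity.

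Grouped by place, the 10 chaperones of the endoplasmic reticulum had 2, 6 and 5 peaks in Fs and 6, 5 and 8 in Fts, with overlap. The 7 mitochondrial chaperones had 0, 3 and 1 in Fs and 4, 4 and 5 in Fts, without overlap. With peaks joined across junctions the mitochondrial chaperones had 3 in each Fts sample and the same numbers in Fs, and the groups overlapped. The 15 chaperones known from germ cells had 5, 2 and 4 in Fs and 9, 12 and 12 in Fts, also without overlap. Only 1 of these 15 had more peaks in Fts in each comparison by number (beside 6.1% of all mRNA genes). With peaks joined across junctions their mean difference was 4.67 peaks in place of 7.33, still without overlap. The 3 endocytic J-proteins had 1, 1 and 3 in Fs and 1, 0 and 1 in Fts. A list of 22 genes set by name, which included the HSF genes, had 6, 5 and 9 in Fs and 17, 19 and 21 in Fts, without overlap. Their median differences in peaks, in this order, were 0, 0, 0, -0.333 and 0.167, beside 0 for all mRNA genes.

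Of 44 other genes of protein folding, which include cochaperones, prefoldins, disulfide isomerases and lectin chaperones, 32 had a peak. Their peaks numbered 9, 12 and 16 in Fs and 41, 52 and 38 in Fts. All Fts samples were above all Fs samples, and the median difference was 0.333 peaks. More peaks in Fts in each of the 3 comparisons were found for 10 of the 44 and fewer for 0, beside 6.1% and 3.88% of all mRNA genes. A peak in all 3 Fts and no Fs sample was found for 5 (beside 3.16%), which are CDC37, GRPEL1, PFDN5, NUDC and HSBP1. ST13, which binds HSP70, had 1, 2 and 1 peaks in Fs and 9, 8 and 8 in Fts, and was named after its values were seen.

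Markers were read in the same lists. Of 16 sperm and spermatid genes, 8 had a peak, with 4, 4 and 5 peaks in Fs and 5, 8 and 5 in Fts. PRM1, TNP1, ODF1, AKAP4, SPAM1, IZUMO1, GAPDHS and TSSK6 had none, and the highest score was 3100, of PRM2, in Fts sample 2. A peak in all 3 Fts and no Fs samples was found for 2 of the 16, ZPBP and SPATA18, and the reverse for 1, ACR, beside 3.16% and 2.36% of all mRNA genes. AKAP3, with 2, 1 and 3 peaks in Fs and 0, 0 and 1 in Fts, also had fewer in each comparison by number. Of 15 genes of leukocytes, epithelium, fibroblasts, testis somatic cells and red blood cells, 12 had a peak, with 3, 6 and 10 peaks in Fs and 9 in each Fts sample. CD14, EPCAM and HBB had none, and PTPRC had 0, 2 and 0 peaks in Fs and 0, 0 and 1 in Fts. KRT8, an epithelial keratin, had the most of these, with 0, 0 and 0 peaks in Fs and 3, 4 and 2 in Fts and a highest score of 481. A peak in all 3 Fts and no Fs samples was found for 3 of the 15, KRT8, SOX9 and COL1A2, and the reverse for 1, VIM, beside the same 3.16% and 2.36%. COL1A1, with 2, 1 and 2 peaks in Fs and 0, 0 and 1 in Fts, and INSL3, with 0, 1 and 2 in Fs and none in Fts, had more peaks in Fs. ITGAM had 2 peaks, both in Fs sample 3. Markers given by name here, other than those without a peak, were named after their values were seen. With a score of at least 50, the sperm and spermatid genes had no peak in Fs and 3, 6 and 2 in Fts, and the genes of other cells none in Fs and 2, 4 and 3 in Fts, so that both lists were then without overlap, as they were with at least 20. Peaks are not amounts of RNA, and their part in the result was not tested.

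Peaks with high scores were also more numerous in Fts, on chaperone genes, on all mRNA genes and on both marker lists. A score of at least 50 was reached by 3, 1 and 2 peaks in Fs and by 13, 26 and 13 in Fts, and on all mRNA genes by 1239, 1411 and 1334 in Fs and 1759, 2858 and 2401 in Fts. As shares of the chaperone peaks these were 8.15% ± 6.04 in Fs and 29.8% ± 10.2 in Fts (SD, n = 3), beside 16.5% and 23.6% of the peaks on all mRNA genes. Peaks of chaperone genes that matched a whole exon numbered 6, 8 and 15 in Fs and 31, 39 and 36 in Fts. Their share was 34.2% ± 8.59 in Fs and 61.7% ± 1.64 in Fts (SD, n = 3), beside 38.7% and 50.8% on all mRNA genes. Ends set by annotated exons and ends of the enrichment cannot be told apart in such peaks, which bears on the positions, lengths and letters given for them. Overlapping peaks of the 6 samples merged to 134 regions on chaperone genes, of which 64 were in 1 sample, 79 in Fts samples only, 37 in Fs samples only and 18 in both groups. A peak in all 3 Fts and no Fs sample was found for 17 regions (12.7%, beside 6.78% of the 26220 regions on all mRNA genes), and the reverse for 1, on HSPB2 (0.746%, beside 3.65%). Other regions than those with a peak in all 6 samples, or in 3 samples of 1 group alone with scores of at least 20, were described after their values were seen.

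Of the chaperone peaks, 20, 26 and 31 in Fs and 45, 58 and 53 in Fts could be placed on the longest coding transcript, and the shares are of these. The share with the midpoint in the coding sequence, more than 100 nt from the start and stop codons, was 50%, 53.8% and 61.3% in Fs and 73.3%, 82.8% and 77.4% in Fts. The groups did not overlap, with means of 55.0% ± 5.74 and 77.8% ± 4.73 (SD, n = 3) and a mean difference of 22.8 percentage points (SD 6.44). With a score of at least 20 that difference was 43.0 points (SD 20.8). With at least 50 it was 45.5 points (SD 40.7), where Fs had 3, 1 and 2 chaperone peaks. Without a minimum score, the shares for all mRNA genes were 72.2% and 76.4%, and this class makes up 41.1% of the length of the chaperone transcripts. In numbers, these were 10, 14 and 19 peaks in Fs and 33, 48 and 41 in Fts. Within 100 nt of the start codon there were 4, 5 and 6 peaks in Fs and 4, 5 and 5 in Fts, about the same number in both groups. As shares these were 19.5% in Fs and 8.98% in Fts, of a larger number of peaks in Fts, beside 9.30% and 8.06% for all mRNA genes.

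The letters GGACT, a common form of the m6A sequence context, were searched on the strand of the gene alone. They were found in 25%, 25% and 17.6% of the chaperone peaks in Fs and in 30.6%, 25.4% and 21.7% in Fts. The groups overlapped, and the mean difference of 3.34 percentage points was close to its SD of 2.67. It turned to -11.8 points with a score of at least 20, -60.7 with at least 50 and -0.739 within 100 bp around the midpoint. With at least 50 the Fs shares rest on 3, 1 and 2 peaks. Those with GGACT were all on DNAJB11 exon 2 and HSPB2 exon 3. Without peaks under 50 bp, a setting chosen after seeing the data, the mean difference was -0.531. All peaks on mRNA genes held GGACT in 22.1% in Fs and 23.5% in Fts. Windows of 167 nt along the transcripts held it in 13.3% for the chaperone genes and 14.7% for all mRNA genes. The windows have a fixed length and whole peaks vary in length, so their shares are not directly comparable. Within 100 bp around the midpoint the shares were 11.3% in Fs and 10.6% in Fts for chaperone peaks, beside 9.80% and 9.19% for all peaks. The shorter GGAC, which GGACT contains, was in 60%, 35.7% and 38.2% of the chaperone peaks in Fs and in 61.2%, 55.6% and 56.7% in Fts, and the groups overlapped. The means were 44.6% and 57.8%, beside 55.0% and 56.9% of all peaks, and in 44.4% of the chaperone windows and 47.3% of all windows. Of the 7 regions described above with a peak in all 3 Fts and no Fs samples and scores of at least 20, GGACT was in 3, the DNAJB2 region and DNAJC11 exons 3 and 4. The other 4, HSP90AB1 exon 11, HSPA4 exon 3, DNAJB6 exon 3 and its region outside the longest coding transcript, held none. Of the 3 regions with a peak in all 6 samples, DNAJB11 exon 2 held GGACT, and DNAJA1 exon 3 and the DNAJC27 3′ untranslated region did not.

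Stretches of the assembly (Sscrofa11.1, susScr11) from regions described above are given 5′ to 3′ on the strand of the gene, with the searched letters in capitals. They were chosen as examples of a peak in all 6 samples (DNAJB11), in Fs alone (HSPB2) and in all 3 Fts samples (DNAJC11, HSP90AB1). The DNAJB11 stretch is chr13:124390974-124391002 (+ strand, exon 2, 5′ untranslated region), and that of HSPB2 is chr9:39643605-39643633 (+ strand, exon 3, coding sequence). The DNAJC11 stretches are chr6:67494550-67494578 (exon 4) and chr6:67501003-67501031 (exon 3), both in the coding sequence on the - strand. The HSP90AB1 stretch, chr7:39246876-39246905 (+ strand, exon 7, coding sequence), shows GGAC, and the others show GGACT. A match describes the letters and does not locate a methylated base.
DNAJB11 exon 2: cttctctcgccgGGACTcaGGACTcccgg
HSPB2 exon 3: aggtgaccgtgaGGACTgtggacaacctg
DNAJC11 exon 4: tggaaaggaggaGGACTccagccgaaatc
DNAJC11 exon 3: tatggcaagagaGGACTggaaatggaagg
HSP90AB1 exon 7: accaagcccatctGGACcaggaaccctgat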

How the data were processed

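MeRIP-seq libraries (12, of which 6 were IP) were prepared from fragments of about 100 nt. The authors trimmed reads with cutadapt 1.9.3, aligned them with HISAT2 to susScr11 and called peaks per sample with MACS, IP against input; its version and threshold are not given in the sources used here. The deposited score is described as 10 times the −log10 of the MACS p-value and is not scaled between samples. Input samples have no file used here, and the authors' own list of sites that differ between Fts and Fs, with scores, was not used. A peak belonged to a RefSeq gene (Annotation Release 106) when it overlapped an exon on the strand given in the list. How that strand was assigned is not given in the sources used here. Positions were read on the transcript with the longest coding sequence, called the longest coding transcript. Copies were searched with BLAST 2.17.0 (90% identity over 90% of regions of at least 50 bp). Python 3.11.15, numpy 2.4.6, scipy 1.17.1 and pysam 0.24.0 were used, and the counting was tested on simulated data. Genes, lists and members were chosen with earlier results of these data known. Named genes were a list of 22 set by name, which holds chaperones, cochaperones and the HSF genes. To these were added genes with a peak in all samples of 1 group and none of the other, or in all 6 samples. The 8 genes with the largest differences were added too. Named regions were those in all 6 samples or in 3 samples of 1 group alone with scores of at least 20. Other regions of these genes were chosen after their values were seen. Samples of the same number were compared as pairs, and exact sign-flip and permutation tests were run for single genes. Alternatives were a minimum score of 20 or 50, at least 50% of a peak on exons, peaks joined across exon junctions, either strand, other codon and motif windows, no block, and each sample number left out.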

Additional observations from a re-analysis of the deposited data

How the results depend on the processing

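With a score of at least 20, the mean difference was 20.3 peaks on chaperone genes, 4.04 per 1000 peaks and 43.0 percentage points in the coding sequence, 0 genes had a peak in all 6 samples (beside 2.24% of all mRNA genes), and the GGACT difference reversed to -11.8 points. HSPB2 then had a peak in 3 Fs and no Fts samples (1.14%, beside 1.28% of all mRNA genes), HSPA14 did not, and 6 genes had the opposite pattern (DNAJB2, DNAJB6, DNAJC14, HSPA4, HSPA4L and HSPA8, without HSP90B1; 6.82%, beside 2.94%). With at least 50 these were 15.3, 5.76, 45.5, 0 and -60.7, where the Fs coding-sequence and GGACT shares rest on 3, 1 and 2 peaks. The SD of the coding-sequence difference was 20.8 points with at least 20 and 40.7 with at least 50, beside 6.44. With at least 50, 0 genes had a peak in 3 Fs and no Fts samples (beside 0.803%). In every pair 0 had fewer peaks (beside 0.948%) and 6 had more (6.82%, beside 2.35%), a pattern that by itself gives the smallest exact sign-flip p. With at least 50% of a peak on exons, 2 genes, HSPA14 and HSPB2, had a peak in 3 Fs and no Fts samples and fewer peaks in every pair (2.27%, beside 2.31% and 3.73%). Joining peaks across junctions gave 21 peaks and a GGACT difference of 6.05 points. The GGACT difference was -0.739 points within 100 bp around the midpoint, and GGAC gave 13.2. Leaving out each number in turn gave 9 to 13 genes with a peak in the Fts samples alone (beside 5.31% to 5.79% of all mRNA genes). It gave 1 to 8 in the Fs samples alone (4.25% to 5.30%) and 3 to 7 in all samples (9.53% to 10.9%). More peaks in every pair were found for 13 to 18 (8.65% to 9.48%) and fewer for 1 to 8 (6.33% to 7.82%). The patterns of more and of fewer peaks together held 15 to 26 genes, which is no further result. The highest of each was without number 1. Fewer samples have to share a pattern whichever number is left out, and why number 1 gave the highest counts was not tested. The causes of the other moves were not tested either. Chosen after seeing the data, a score of at least 20 set Fs above Fts without overlap for the HSPB genes. All Fs peaks of the HSPB genes lay on stretches shared with another gene. The same score set Fts above Fs for the DNAJA and DNAJC genes and both marker lists. With at least 50 the groups overlapped again for the HSPB and DNAJA genes. The mean differences of 9 of 30 named genes moved by at least their SD with at least 20, and of 13 with at least 50. Joining peaks gave a difference of -0.667 peaks on the DNAJC genes, beside 0.667. Leaving out each number gave -1 to 2.5 peaks for the DNAJC, -1.5 to 1 for the HSPB and -0.5 to 1.5 for the HSF genes, whose groups overlapped. Leaving out chaperone peaks under 50 bp gave 0 genes in 3 Fs and no Fts samples, 0 with fewer peaks in every pair and a GGACT difference of -0.531. That filter was run on the chaperone peaks alone, so these counts have no share of all mRNA genes beside them and cannot be set against one. Leaving out peaks on another mRNA gene's exon gave a difference of 31 peaks, and leaving out regions with a copy gave 28.7. Without the replicate block (the pairing by number), 8 genes were higher and 1 was lower (9.09% and 1.14%, beside 5.08% and 3.03% of all mRNA genes). With it 9 were higher and 1 was lower (10.2% and 1.14%, beside 6.1% and 3.88%). By these patterns alone, 9 genes without the block and 10 with it reached the smallest exact p. Over 11705 genes the deviations of same-numbered samples correlated at 0.0103, -0.0143 and 0.0129, and not every sample correlated best with its own number. The number of peaks on chaperone genes was higher in Fts under every alternative run. The lists give no read numbers, those of the libraries were not used here, and neither exact test used can give a p under 0.05 with 3 samples a group.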
